A study of Mus musculus with 6 samples.

Results

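The AMPA and kainate receptor subunits are the pore-forming proteins of the fast glutamate receptors other than the NMDA class. In the mouse they are encoded by 4 AMPA genes (*Gria1*, *Gria2*, *Gria3* and *Gria4*, for GluA1 to GluA4) and 5 kainate genes (*Grik1* to *Grik5*, for GluK1 to GluK5). All 9 were chosen by gene symbol, out of 55421 genes in the count table, and each symbol matched 1 gene. Transcripts were measured in whole retinas of 2-month-old mice, with 1 RNA-seq library for each of 3 control retinas (animals YR612, YR613, YR615) and 3 *Yap* cKO retinas (YR711, YR713 and YR714), described in the study as independent biological replicates. Control mice were *Yap* fl/fl, and *Yap* cKO mice were *Yap* fl/fl with the *Rax-CreERT2* transgene. Both groups received 4-hydroxytamoxifen at P10 and P14, so the floxed alleles and the drug were common to all 6 animals, while the Cre transgene and the deletion cannot be told apart. The study describes Cre activity in this line as limited to Müller glia and to the non-pigmented epithelium of the ciliary body in the postnatal eye, so by that description neurons were not the cells in which *Yap* was deleted.

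AMPA and kainate receptors are tetramers that open a cation channel when glutamate binds. GluA2 transcripts are edited by the enzyme ADAR2 at one codon of the pore loop, from glutamine to arginine, and the edited subunit makes AMPA receptors nearly impermeable to calcium; GluK1 and GluK2 transcripts are partly edited at the matching codon. GluK1, GluK2 and GluK3 can form channels by themselves, whereas GluK4 and GluK5 need one of them as a partner. In the retina, photoreceptors release glutamate onto AMPA and kainate receptors of OFF bipolar cells and onto AMPA receptors of horizontal cells, and bipolar cells release it onto AMPA receptors of amacrine and ganglion cells.

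The pore-loop codon was looked up in the reference transcripts because it is the site at which subunits of both families differ in editing. It was found once in each of the 9 genes. The 45 coding bases around it are printed from 5′ to 3′ on the sense strand, from the GENCODE M21 transcripts on GRCm38, with the codon in capitals.
Gria1: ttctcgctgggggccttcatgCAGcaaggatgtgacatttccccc
Gria2: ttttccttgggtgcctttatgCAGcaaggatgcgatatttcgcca
Gria3: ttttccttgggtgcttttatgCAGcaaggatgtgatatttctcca
Gria4: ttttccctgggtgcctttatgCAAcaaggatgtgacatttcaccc
Grik1: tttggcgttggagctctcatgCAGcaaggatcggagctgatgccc
Grik2: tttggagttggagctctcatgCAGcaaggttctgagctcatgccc
Grik3: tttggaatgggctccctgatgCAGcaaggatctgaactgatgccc
Grik4: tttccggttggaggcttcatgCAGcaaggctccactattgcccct
Grik5: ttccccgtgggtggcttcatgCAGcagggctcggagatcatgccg
All 9 genes carry a glutamine codon there, spelled CAG in 8 and CAA in *Gria4*. In *Gria2* it is codon 607, at chr3:80706911-80706913 on the minus strand. The codon of *Grik1* (codon 636) lies at chr16:87940542-87940544 and that of *Grik2* (codon 621) at chr10:49244329-49244331, both on the minus strand, and in *Grik1*, *Grik2* and *Grik3* the printed bases span an intron. *Gria2* and *Gria3* share 42 of the 45 bases and *Grik1* and *Grik2* share 41, against 24 for the least alike pair, *Grik3* and *Grik4*. Counts per gene add edited and unedited transcripts together, so the values that follow say nothing of editing.

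The genes lie on 8 chromosomes. On GRCm38, *Gria1* lies at chr11:57011387-57330244 (plus strand), *Gria2* at chr3:80681450-80802835 (minus), *Gria3* at chrX:41400854-41678601 (plus) and *Gria4* at chr9:4417896-4796234 (minus). The kainate genes lie at chr16:87895900-88290265 (*Grik1*, minus), chr10:49094833-49788766 (*Grik2*, minus), chr4:125490700-125714173 (*Grik3*, plus), chr9:42518135-42944493 (*Grik4*, minus) and chr7:25009849-25072346 (*Grik5*, minus). Over the coding sequence, AMPA subunits shared 68.0% (*Gria1* and *Gria4*) to 72.8% (*Gria2* and *Gria4*) of aligned bases. *Grik1*, *Grik2* and *Grik3* shared 70.6% to 72.3%, *Grik4* and *Grik5* shared 71.4%, and the 2 families shared at most 58.4% (*Gria1* and *Grik3*). Reads were 40 bases long, and the longest identical coding run, 41 bases, was between *Gria2* and *Gria4*. At most 0.495% of the distinct 40-base stretches of a member (31 of 6266 in *Gria4*) occurred in another member, so little of the signal could be split between them.

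Between 24261799 and 35067068 fragments per retina were assigned to genes. The targeted gene, *Yap1*, lay between 9.48 and 9.83 TPM (transcript counts scaled by exonic length and depth) in control retinas and between 3.76 and 3.99 in *Yap* cKO retinas. With edgeR's quasi-likelihood test, Benjamini-Hochberg adjusted over the 16575 genes tested, its log2 fold change was -1.36 (SE 0.0928, adjusted p = 0.000282). To be called differentially expressed, a gene needed a mean TPM of 5 or more in 1 of the groups, a change of 1.5-fold or more and an adjusted p no higher than 0.05, which 132 genes met. In these libraries the change of a gene followed its exonic length (Spearman's rho = 0.391 across genes, a description, since genes are not replicates). Changes of the 9 subunit genes are therefore also given after a correction for length within each retina.

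In control retinas, *Grik1*, *Gria4* and *Grik5* had the highest levels of the 9 genes. *Grik1* lay between 59.6 and 66.2 TPM, *Gria4* between 47.8 and 64.5, and *Grik5* between 46.3 and 51.5. *Grik1* was the highest of the 3 in each control retina, and its range lay above that of *Grik5* and overlapped that of *Gria4*. The ranges of *Gria4* and *Grik5* overlapped. *Gria1* came next, between 34.1 and 41.2 TPM, apart from both neighbours. *Gria3* (12.5 to 18.3 TPM) and *Gria2* (10.1 to 15.2 TPM) overlapped each other. The lowest genes were *Grik3* (4.32 to 5.24 TPM) and *Grik2* (3.27 to 4.66 TPM), which overlapped, and *Grik4* (2.82 to 3.19 TPM). By mean control TPM, *Grik1* stood at the 82.6th percentile of the tested genes and *Grik4* at the 20.6th. All 9 genes passed the filter on low counts. *Grik4* rested on the fewest fragments, between 111 and 146 per retina, and *Grik1* on between 2642 and 4335.

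**Figure D1:**
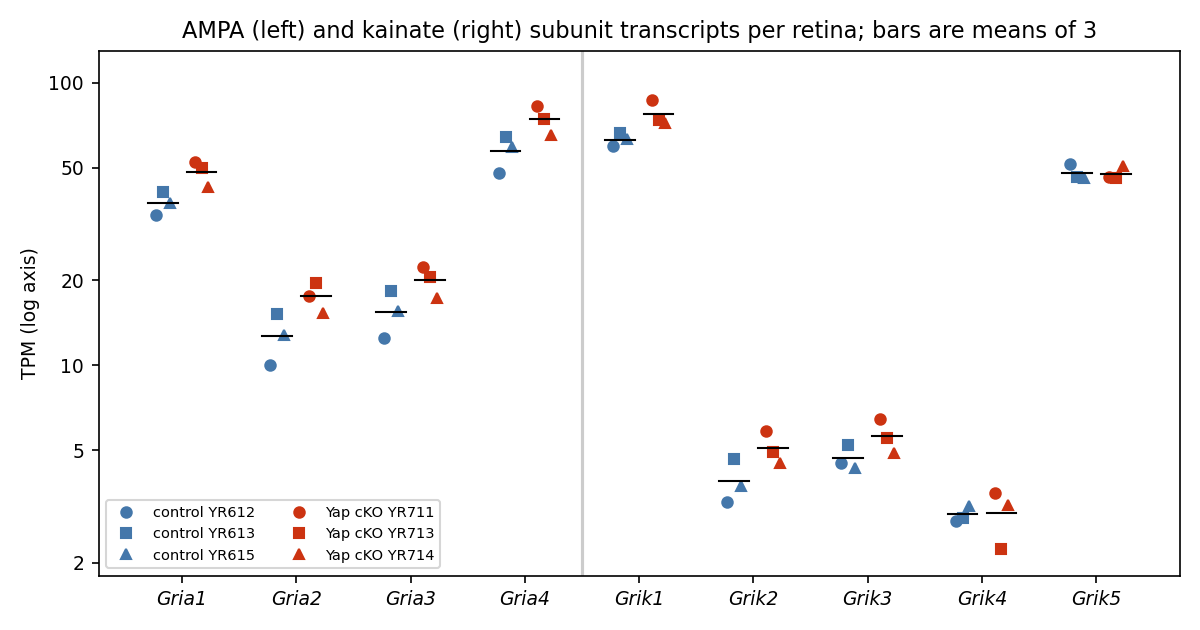
Level of each subunit transcript in each retina, in TPM on a log axis, with control retinas in blue, *Yap* cKO retinas in red and a bar at the mean of each group of 3. Every *Yap* cKO retina lies above every control retina for *Gria1*, *Gria2*, *Gria4* and *Grik1*, while the groups overlap for the other 5 genes.

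None of the 9 genes was differentially expressed between *Yap* cKO and control retinas, against 0.796% of all genes tested. *Grik4*, with means of 2.97 TPM in controls and 2.99 in *Yap* cKO, was below the minimum of 5 TPM and could not be called. None of the 9 reached an adjusted p of 0.05 either, against 1.49% of all genes. The fitted change was above 0 for 7 of the 9, against 50.3% of all genes, with a median log2 fold change of 0.31 over the 9 beside 0.0017 over all genes. The unadjusted p was at most 0.05 for 6 of the 9 genes, as it was for 3549 of the 16575 genes tested. With limma-voom, the likelihood ratio test of edgeR or DESeq2's Wald test, 0 of the 9 reached an adjusted p of 0.05 as well, against 1.64%, 6.18% and 5.38% of all genes. For 4 of the 9 genes every *Yap* cKO value exceeded every control value, against 15.2% of all genes, and the opposite order occurred for 0 of the 9, against 9.04%. After correction for length the median over the 9 fell to 0.16, with 7 still above 0, against 49.6% of all genes, and 0 at an adjusted p of 0.05, against 2.5% of all genes.

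The AMPA subunits had similar fitted changes. *Gria1* stood at 34.1, 41.2 and 37.7 TPM in YR612, YR613 and YR615 (control), and at 52.6, 50.01 and 42.9 TPM in YR711, YR713 and YR714 (*Yap* cKO). The lowest *Yap* cKO retina was thus above the highest control. Its mean was 37.7 ± 3.54 TPM in controls and 48.5 ± 5.02 TPM in *Yap* cKO (SD, n = 3 each). The log2 fold change of *Gria1* was 0.31 (SE 0.0892, adjusted p = 0.112), a fold of 1.24 with a 95% interval from 1.08 to 1.42. It had the lowest adjusted p of the 9 genes.

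*Gria2*, whose edited product sets the calcium permeability of AMPA receptors, stood at 10.1, 15.2 and 12.8 TPM in control retinas and at 17.6, 19.6 and 15.3 TPM in *Yap* cKO retinas, in the same order of animals. The groups were separated only narrowly, by YR613 and YR714. The fitted log2 fold change was 0.42 (SE 0.131, adjusted p = 0.130), the highest of the 9. *Gria2* is also the longest, with 15548 exonic bases, and corrected for length it stood at 0.16 (adjusted p = 0.349), so most of the fitted change went with the correction.

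*Gria3* stood at 12.5, 18.3 and 15.5 TPM in control retinas and at 22.3, 20.5 and 17.3 TPM in *Yap* cKO retinas. The groups overlapped, since YR714 was below YR613. The log2 fold change was 0.32 (SE 0.125, adjusted p = 0.189), and 0.19 with the correction for length. *Gria3* is the only member on the X chromosome. From *Xist* and *Ddx3y*, controls YR612 and YR613 and *Yap* cKO YR711 were male and the other 3 retinas female. With sex as a covariate the log2 fold change of *Gria3* was 0.35.

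*Gria4*, the most abundant AMPA subunit, stood at 47.8, 64.5 and 59.4 TPM in control retinas and at 82.9, 74.7 and 65.7 TPM in *Yap* cKO retinas. Again the groups did not overlap, with YR613 and YR714 closest. The log2 fold change of *Gria4* was 0.32 (SE 0.109, adjusted p = 0.147). It was 0.26 with the correction for length, the highest corrected value of the 9 genes.

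Among the kainate subunits that can form channels by themselves, *Grik1* stood at 59.6, 66.2 and 63.3 TPM in control retinas and at 87.3, 74.1 and 71.9 TPM in *Yap* cKO retinas. The groups did not overlap, and YR711 was well above the other 5 retinas. Its mean was 63.0 ± 3.32 TPM in controls and 77.8 ± 8.34 TPM in *Yap* cKO (SD, n = 3 each). The log2 fold change was 0.25 (SE 0.0840, adjusted p = 0.151), a fold of 1.19 with a 95% interval from 1.04 to 1.35. With the correction for length it was 0.18 (adjusted p = 0.189).

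*Grik2* stood at 3.27, 4.66 and 3.75 TPM in control retinas and at 5.85, 4.95 and 4.52 TPM in *Yap* cKO retinas. The groups overlapped through YR613 and YR714. The log2 fold change was 0.33 (SE 0.135, adjusted p = 0.200), and 0.12 with the correction for its 13246 exonic bases. *Grik3* stood at 4.51, 5.24 and 4.32 TPM against 6.44, 5.53 and 4.91 TPM, also with overlap. *Grik3* had a log2 fold change of 0.20 (SE 0.124, adjusted p = 0.353), and 0.085 with the correction for length (adjusted p = 0.677).

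The partner subunits had fitted changes near 0. *Grik4* stood at 2.82, 2.89 and 3.19 TPM in control retinas and at 3.52, 2.24 and 3.22 TPM in *Yap* cKO retinas, so that the highest and the lowest of the 6 retinas were both *Yap* cKO. Its log2 fold change was -0.056 (SE 0.180, adjusted p = 0.876), with a 95% interval in fold from 0.727 to 1.27. *Grik5* stood at 51.5, 46.5 and 46.3 TPM in control retinas and at 46.3, 46.2 and 50.8 TPM in *Yap* cKO retinas. Each group held one retina above 50 TPM and a pair close to 46 TPM. For *Grik5* the log2 fold change was -0.068 (SE 0.0920, adjusted p = 0.685), with an interval in fold from 0.826 to 1.10, and it was -0.098 with the correction for length. A change of 1.5-fold is outside both intervals, whereas changes up to the limits of each interval are not.

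**Figure D2:**
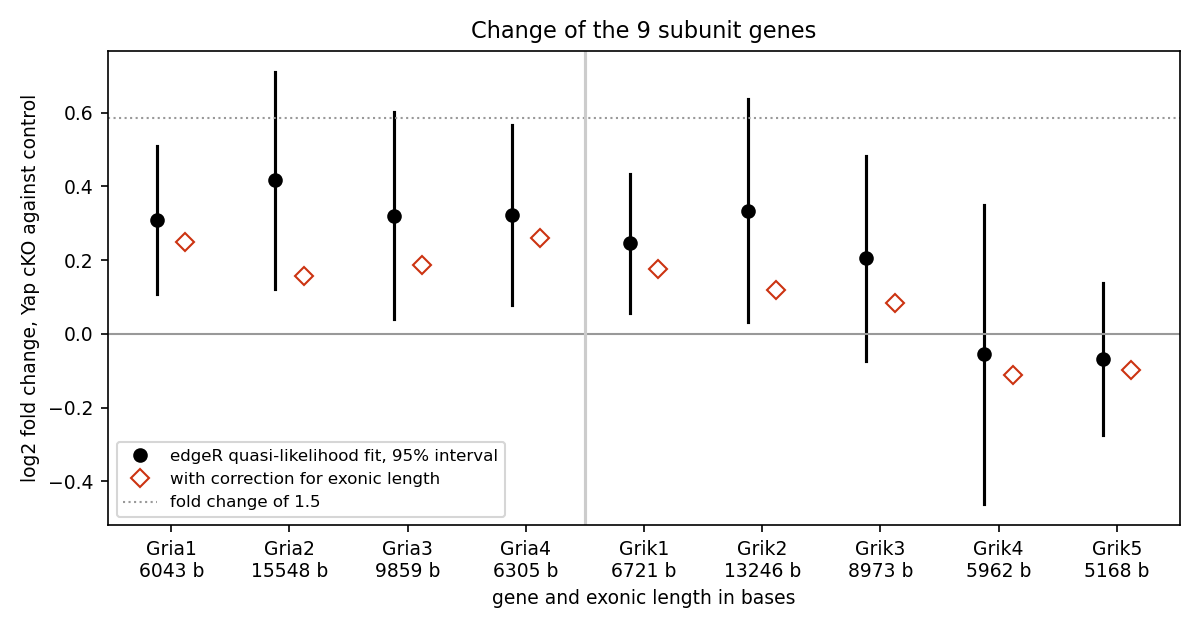
Log2 fold change of each subunit gene, *Yap* cKO against control, from edgeR's quasi-likelihood fit with its 95% interval (black), and after correction for exonic length (open red diamonds), with each gene's exonic length below its name. *Gria2* and *Grik2*, the longest genes, move most with the correction, from 0.42 to 0.16 and from 0.33 to 0.12, and *Grik4* and *Grik5* stay below 0.

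The members differed from one another in step with their length. Across the 9 genes the log2 fold change and exonic length had a Spearman's rho of 0.8, and 0.22 after the correction; these genes share the same 6 libraries. The 2 genes with a change below 0, *Grik5* (5168 bases) and *Grik4* (5962 bases), are the shortest. *Gria1*, with 6043 bases, is barely longer than *Grik4*, and its log2 fold change was 0.31 before and 0.25 after the correction. *Grik4* stood at -0.11 after the correction.

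The retinas themselves were not equal within a group. *Yap* cKO YR711 held the highest TPM of 7 of the 9 genes, and control YR612 the lowest of 6. Across the 6 retinas, the TMM-normalized log2 CPM (counts scaled by depth) of the 7 genes other than *Grik4* and *Grik5* moved together, with Pearson's r between 0.68 and 0.99 for every pair. These r values are a description over 6 libraries that include the group difference. The length dependence of all genes also differed between retinas. Spearman's rho between a gene's level relative to its mean and exonic length was -0.41, 0.17 and -0.41 in controls YR612, YR613 and YR615, and 0.40, 0.39 and -0.15 in YR711, YR713 and YR714. The control with the highest rho, YR613, and the *Yap* cKO retina with the lowest, YR714, were also the closest across the groups for the AMPA subunits. Without YR613, *Gria2* (0.54, adjusted p = 0.0275) and *Gria3* (0.44, adjusted p = 0.0470) passed an adjusted p of 0.05, as did 8.84% of all genes tested. Without YR714, *Gria1* did (0.37, adjusted p = 0.0444), as did 5.89% of all genes.

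**Figure D3:**
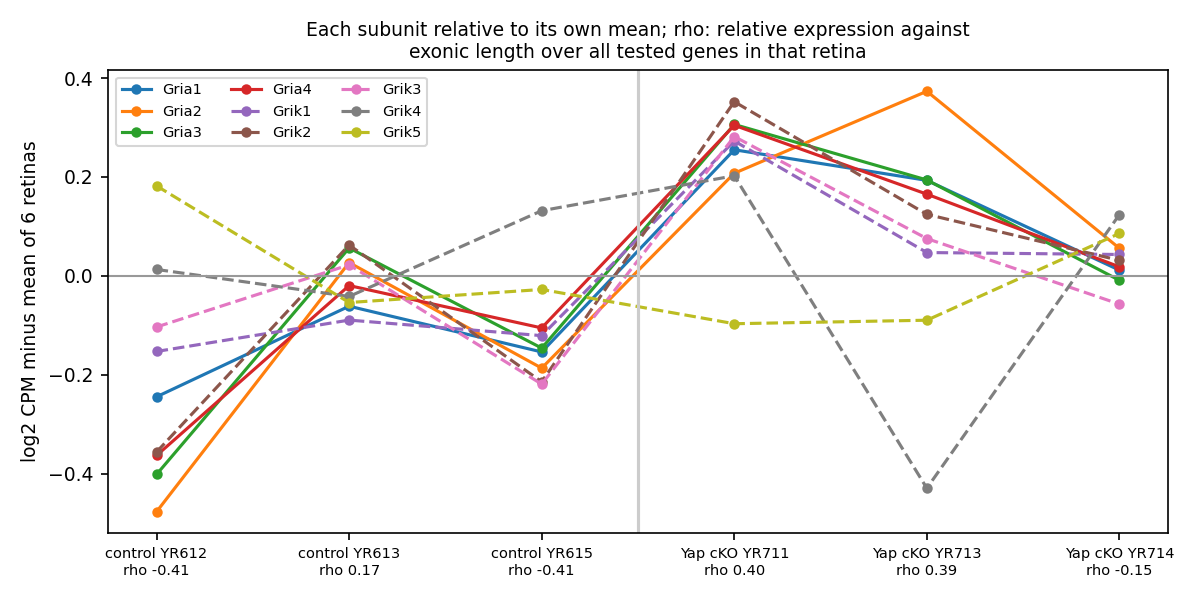
Log2 CPM of each subunit gene in each retina, minus its own mean over the 6 retinas, with AMPA genes as solid and kainate genes as dashed lines that join the points of 1 gene. Below each retina stands Spearman's rho between relative expression and exonic length over all tested genes; in YR612 (rho -0.41) 6 genes have their lowest TPM, and in YR711 (rho 0.40) 7 have their highest.

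The genes whose profile over the 6 retinas was most like the mean of the 9 were *Chrnb3*, *Clcn5*, *D2hgdh*, *Kcnj2* and *Phf24*. Pearson's r was between 0.991 and 0.992 for all 5, the highest of 12208 genes with at least 5 TPM in a group. Being the highest of so many over 6 libraries that include the group difference, these r values are a description only. The mean includes *Grik4* and *Grik5*, which did not move with the other 7. Exonic lengths of the 5 genes ran from 4281 to 11452 bases. *Chrnb3* encodes a nicotinic acetylcholine receptor subunit, *Clcn5* a chloride and proton exchanger, and *Kcnj2* an inward rectifier potassium channel. None was differentially expressed, and their log2 fold changes lay between 0.24 and 0.40.

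Summed AMPA subunit TPM was 104, 139 and 125 in control retinas and 176, 165 and 141 in *Yap* cKO retinas. The summed kainate TPM was 122, 126 and 121 against 149, 133 and 135. The composition of the AMPA pool differed little between the groups. *Gria4* made up 46.5% ± 0.806 in controls and 46.4% ± 0.973 in *Yap* cKO, *Gria1* 30.8% ± 1.64 and 30.2% ± 0.223, *Gria3* 12.5% ± 0.592 and 12.5% ± 0.230, and *Gria2* 10.2% ± 0.640 and 10.9% ± 0.934 (SD, n = 3 each). The two-sided exact permutation p was at least 0.5 for each of the 4 shares. By TPM, *Gria2* was thus the smallest part of the AMPA pool in all 6 retinas. That rank rests on the division by exonic length, 15548 bases for *Gria2* and 9859 for *Gria3*. In fragments, *Gria2* was above *Gria3* in each retina (1031 to 2657 against 814 to 1758).

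In the kainate pool, *Grik1* and *Grik5* together held most of the transcripts. *Grik1* was 49.0%, 52.8% and 52.4% of the pool in control retinas and 58.4%, 55.7% and 53.1% in *Yap* cKO retinas, which lay above all controls by a narrow margin. The means were 51.4% and 55.8%, with an exact permutation p of 0.1, the smallest that 3 retinas against 3 can give. Adjusted over the 9 shares and the AMPA to kainate ratio, the permutation p was 0.5. *Grik5* was 42.3%, 37.1% and 38.3% in controls and 31.0%, 34.7% and 37.5% in *Yap* cKO, with overlap (exact permutation p = 0.2). *Grik2*, *Grik3* and *Grik4* held between 1.68% and 4.31% each in every retina. The ratio of summed AMPA to summed kainate TPM was 0.858, 1.11 and 1.04 in controls and 1.17, 1.24 and 1.04 in *Yap* cKO (exact permutation p = 0.2).

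**Figure D4:**
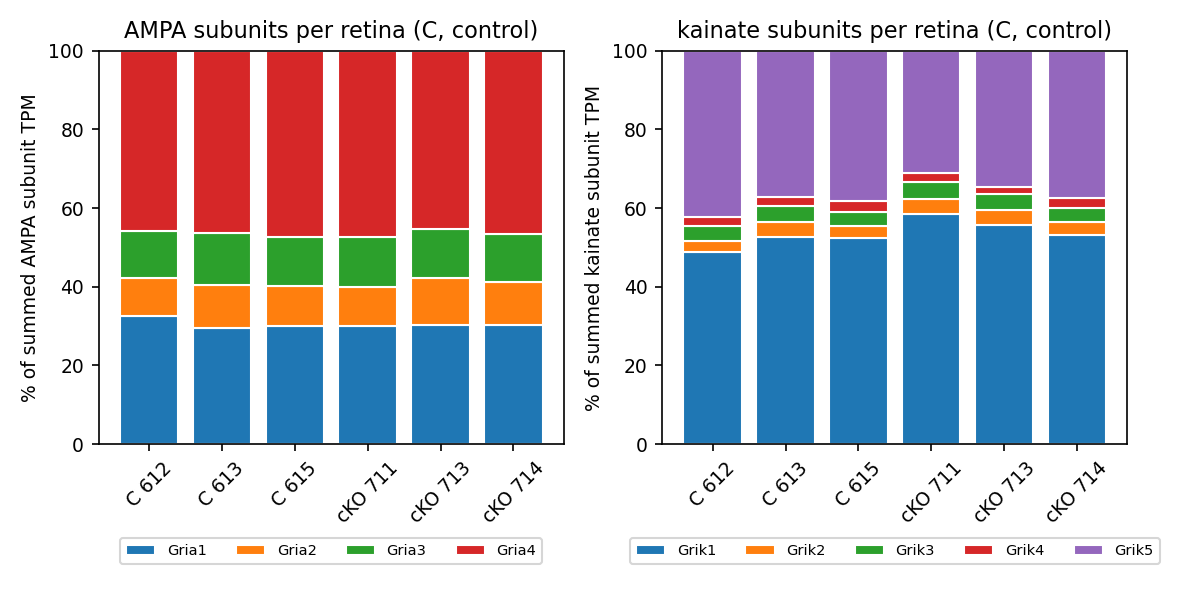
Share of each subunit in the summed TPM of its family, in percent, per retina (C, control). *Gria4* and *Gria1* make up most of the AMPA pool in all 6 retinas, and *Grik1* holds between 49.0% and 58.4% of the kainate pool.

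Proteins that travel with these receptors were followed through fixed lists. Of all genes tested, 0.796% were differentially expressed and 50.3% were above 0, so counts in these short lists are a description only. Of 16 AMPA receptor auxiliary subunits, which set gating and trafficking, 15 were tested and 0 were differentially expressed, with 11 above 0 and a median log2 fold change of 0.16. *Cacng3*, for the transmembrane regulatory protein γ3, stood between 53.6 and 53.9 TPM in control retinas and between 67.6 and 79.5 in *Yap* cKO retinas. Its control retinas were nearly equal and the groups did not overlap. Its log2 fold change was 0.36 (SE 0.0853, adjusted p = 0.0730). With the correction for length it was 0.44 (adjusted p = 0.0214), a setting in which 2.5% of all genes passed. When single retinas were left out, without that correction, the adjusted p of *Cacng3* in edgeR's quasi-likelihood test lay between 0.0537 and 0.322. *Shisa7* stood between 4.08 and 5.25 TPM against 6.70 to 7.45, with a log2 fold change of 0.54 (adjusted p = 0.0634), and 0.47 with the correction. Of 6 proteins that assemble or limit AMPA receptors, 0 were differentially expressed and 4 were above 0. *Frrs1l*, an assembly factor, overlapped between the groups (0.36, adjusted p = 0.238), and *Abhd6*, which limits surface delivery, had 0.15 (adjusted p = 0.246).

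Both kainate receptor auxiliary subunits, which slow receptor kinetics, had all *Yap* cKO retinas above all controls, as did 15.2% of all genes tested. *Neto1* stood at 6.97, 9.80 and 9.13 TPM in control retinas and at 15.1, 11.8 and 10.97 TPM in *Yap* cKO retinas. Its log2 fold change was 0.49 (SE 0.141, adjusted p = 0.112). *Neto2* stood at 21.7, 29.8 and 26.4 TPM against 38.9, 35.004 and 31.4 TPM, with a log2 fold change of 0.38 (SE 0.109, adjusted p = 0.112). Neither passed edgeR's quasi-likelihood test, while DESeq2's Wald test gave adjusted p of 0.0314 for *Neto1* and 0.0467 for *Neto2*. With that Wald test 5.38% of all genes passed. Leaving out YR613, where 8.84% of all genes passed, took *Neto1* to 0.57 (adjusted p = 0.0474) and *Neto2* to 0.47 (adjusted p = 0.0309). Leaving out YR714, where 5.89% of all genes passed, took *Neto1* to 0.56 (adjusted p = 0.0467). In the other direction, *Neto1* stood at 0.34 without YR711 (adjusted p = 0.248) and at 0.38 without YR612 (adjusted p = 0.357), and *Neto2* at 0.28 without YR612 (adjusted p = 0.345) and at 0.30 without YR711 (adjusted p = 0.254). With the correction for length they stood at 0.38 and 0.32.

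Of 14 scaffold and trafficking genes, 13 were above 0 and 0 were differentially expressed, against 50.3% and 0.796% of all genes tested. Their median log2 fold change was 0.17 before and 0.067 after correction for length. After the correction 11 were above 0, against 49.6% of all genes. *Dlg2*, for the postsynaptic scaffold PSD-93, had the lowest p (0.52, adjusted p = 0.0624), and fell to 0.22 with the correction for its 17870 exonic bases. *Hip1*, for an endocytic adaptor, had 0.42 (adjusted p = 0.0692), and 0.22 with the correction for length (adjusted p = 0.137). All 3 genes of the adenosine deaminase family had changes above 0 and 0 passed the test, against 50.3% and 1.49% of all genes tested. *Adarb1*, which encodes ADAR2, stood at 100.03, 123 and 114 TPM in control retinas and at 156, 148 and 138 TPM in *Yap* cKO retinas, without overlap. *Adarb1* had a log2 fold change of 0.34 (SE 0.0802, adjusted p = 0.0757), and 0.17 with the correction for length. *Adar*, for ADAR1, had 0.33 (adjusted p = 0.121), and 0.23 with the correction.

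One call was made among 11 extracellular organisers, secreted or surface proteins that gather AMPA receptors at synapses or align synaptic partners. *Gpc4* encodes glypican 4, a proteoglycan that astrocytes release and that raises the AMPA receptors at the neuronal surface. It was the 1 gene called in all the receptor-related lists, against 0.796% of all genes tested, so the count is no result about the lists. *Gpc4* stood at 7.89, 8.31 and 9.57 TPM in control retinas and at 4.84, 4.12 and 2.98 TPM in *Yap* cKO retinas, far from overlap. Its log2 fold change was -1.17 (SE 0.177, adjusted p = 0.0169), and -1.08 with the correction for length (adjusted p = 0.0183). *Gpc4* was no longer called without YR612 (adjusted p = 0.0710), YR615 (adjusted p = 0.102) or YR713 (adjusted p = 0.0741), with a log2 fold change between -1.32 and -1.02 when single retinas were left out. Of the other 10, 7 were above 0, against 50.3% of all genes tested. *Nptx1*, for a pentraxin that clusters AMPA receptors, stood between 91.3 and 102 TPM in controls and between 118 and 123 in *Yap* cKO, with a log2 fold change of 0.27 (adjusted p = 0.1004).

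In the other ionotropic families, 1 gene reached an adjusted p of 0.05, against 1.49% of all genes tested. Changes above 0 were found for 50.3% of all genes. Of 7 NMDA receptor subunits, 6 were above 0, and *Grin3a* rose (0.54, SE 0.0982, adjusted p = 0.0347), from 3.40 to 3.58 TPM in controls to 4.85 to 5.52 in *Yap* cKO, below the fold change of 1.5 that a call needs. Corrected for length it was 0.34 (adjusted p = 0.116), and without YR612, YR615, YR711 or YR713 its adjusted p lay between 0.0803 and 0.174. *Grin2a* had 0.68 (adjusted p = 0.0634) with 17933 exonic bases, and 0.38 after the correction. *Grid1*, for a delta subunit, had 0.24 (adjusted p = 0.161) and did not pass. Of the vesicular glutamate transporters that load the transmitter, *Slc17a7* (0.094, adjusted p = 0.557) and *Slc17a6* (0.16, adjusted p = 0.274) did not pass.

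The summed levels of cell type markers moved with the subunits in part. Among all genes tested, 50.3% were above 0 and 1.49% reached an adjusted p of 0.05. The 7 OFF bipolar markers, on cells that use *Grik1*, summed to between 177 and 206 TPM in control retinas and between 244 and 250 in *Yap* cKO retinas, with 7 of 7 above 0 (median log2 fold change 0.28) and 0 with an adjusted p of at most 0.05. The 10 amacrine markers summed to between 755 and 850 TPM against 923 to 975, with 9 of 10 above 0 and 0 with an adjusted p of at most 0.05. The 8 ON bipolar markers overlapped between the groups (852 to 897 against 859 to 1034 TPM), and 1 of them, *Grm6*, rose (0.46, adjusted p = 0.0249), below the 1.5-fold change that a call needs. Without YR612, YR615, YR711 or YR713 the adjusted p of *Grm6* lay between 0.0539 and 0.131. In bulk retina, a change in the number of cells of a type and a change in RNA per cell cannot be told apart.

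The summed markers of the other neurons overlapped between the groups, although single markers did not all do so. The sums were between 341 and 375 TPM against 348 and 391 for 7 horizontal cell markers, 2356 and 2657 against 2403 and 2676 for 11 ganglion cell markers, 1965 and 2040 against 2011 and 2295 for 7 cone markers, and 54293 and 58024 against 51423 and 56000 for 8 rod markers. Of the 7 horizontal cell markers, 3 had all *Yap* cKO retinas above all controls and 2 had them below, so that opposite changes met in the sum. The unadjusted p of edgeR's test was 0.05 or less for 6 of these 7, as for 3549 of the 16575 genes tested. Likewise, 3 of 7 cone markers lay above without overlap and 2 of 8 rod markers below. Of all genes tested, 15.2% lay above without overlap and 9.04% below, so such counts in short lists are a description only. The 10 Müller glia markers summed to between 6888 and 7113 TPM in controls and between 6030 and 6447 in *Yap* cKO, with 4 of 10 above 0 and 0 with an adjusted p of at most 0.05. Summed markers of pigment cells and lens, tissue next to the retina, were lower in *Yap* cKO. For 6 pigment cell markers the sums were 71.2 to 78.5 against 17.2 to 48.3 TPM. *Pmel* was called at -1.89, but not without YR612, YR615 or YR711 (adjusted p of 0.160, 0.157 and 0.0717). For 7 lens markers the sums were 3.92 to 16.1 against 1.90 to 3.36 TPM. Of these 7, only 3 passed the filter on low counts and 1 had no count. *Cryaa* stood at 5.64 TPM in control YR615 and at 0.730 and 0.843 in the other controls. The 5 pigment epithelium markers (564 to 611 against 175 to 595 TPM) had 5 of 5 below 0. For 7 ciliary epithelium markers the sums were 298 to 306 against 313 to 384 TPM, with 6 of 7 below 0. Most of each sum was *Aqp1*, the 1 marker above 0, at 224 to 238 TPM in controls and 262 to 316 in *Yap* cKO. Sums for astrocytes (78.2 to 103 against 83.9 to 94.2 TPM), microglia (103 to 129 against 103 to 135 TPM) and endothelial cells (188 to 199 against 164 to 217 TPM) overlapped. Apart from *Pmel* and *Grm6*, no marker in these lists reached an adjusted p of 0.05 in the fit without length correction. With the correction, where 2.5% of all genes passed, other markers passed edgeR's quasi-likelihood test too. *Nnat*, *Nyx*, *Prox1*, *Arr3* and *Aqp1* did so above 0 (adjusted p between 0.0193 and 0.0313). *Rlbp1*, *Otx1* and *Slc4a5* did so below 0 (adjusted p between 0.041 and 0.045). The part of any of these cell types in the values of the 9 subunit genes was not tested.

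**Figure D5:**
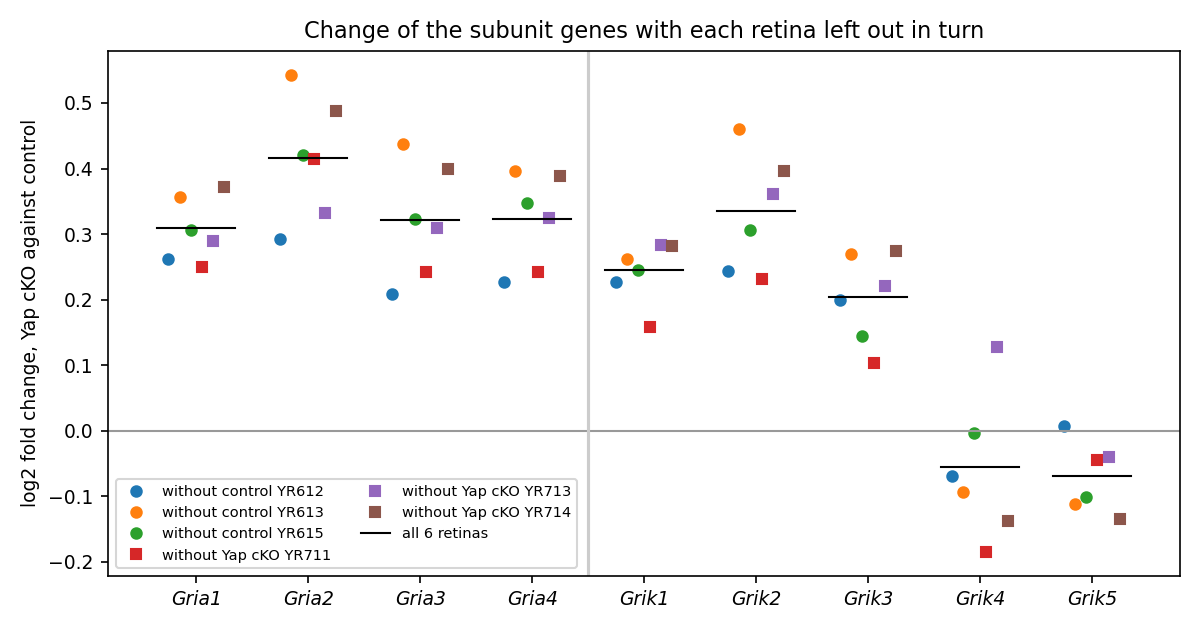
Log2 fold change of each subunit gene with all 6 retinas (bars) and after leaving out single retinas (circles, a control left out; squares, a *Yap* cKO retina left out). The 4 AMPA genes and *Grik1* to *Grik3* stay above 0 in all 6 cases, whereas *Grik4* reaches 0.13 without YR713 and *Grik5* 0.0068 without YR612.

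Promoters were searched for the letters GGAATG or CATTCC, the motif bound by TEAD, the DNA-binding partner of YAP, on both strands from 250 bases before to 50 bases after the RefSeq start site (GRCm38.p6). Of the 6 members with an entry (*Gria2*, *Gria4*, *Grik2*, *Grik3*, *Grik4* and *Grik5*), 0 held it, and 14.7% of all 32851 promoters did.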

How the data were processed

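The authors aligned stranded paired-end reads with STAR 2.7.3a to GRCm38, per the submitters' processing notes, and deposited fragment counts per gene from featureCounts 1.6.2 (exons, strand setting 2, annotation release 98, per the file headers), without normalization. Exonic lengths came from the same table, and TPM were computed from both. edgeR 4.0.16 (R 4.3.3) was run with filterByExpr, TMM and the quasi-likelihood test, Benjamini-Hochberg adjusted over 16575 genes, with 3 retinas per group, at the criteria of the study's methods. The study names edgeR without saying which of its tests. Its own list of differentially expressed genes is longer than the 132 called here and includes *Grin2a*, which was not called here. Total counts were 24261799 to 35067068 per retina. The length correction fitted a loess curve (span 0.3) of relative expression on log length in each retina. Steps were tested on simulated data. Members and lists were chosen with earlier results of these data known. The rule for named genes took, from each receptor-related list, those whose adjusted p was 0.05 or lower and the 2 of lowest p; 1 gene it names is not reported here. *Slc17a6* stands in 2 lists. Small genes overlap at most 0.990% of a member's exonic bases. Alternatives were other size factors, filters, tests (DESeq2 1.42.0, limma 3.58.1), sex as a covariate, and each retina left out. Their use on genes other than the 9 was added after seeing the data.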

Additional observations from a re-analysis of the deposited data

How the results depend on the processing

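None of the 9 subunit genes was called under any of 20 alternatives, although *Grik4* could be called only where the TPM minimum was dropped or lowered. The number with an adjusted p of at most 0.05 was 0 in the reported fit. It was 4 (*Gria1* to *Gria4*) with no filter on low counts, where 6.19% of all genes passed, and between 0 and 2 with each retina left out: 2 without YR613 (control) and 1 without YR714 (*Yap* cKO). The number of all genes called, 132, became 369 with no filter, 263 with DESeq2's Wald test, 291 with edgeR's likelihood ratio test and 245 with that test and length-corrected offsets. It lay between 38 (without control YR615) and 516 (without control YR613) with each retina left out, at 40 without YR612, 68 without YR713 and 448 without YR714. *Grik4* turned to 0.13 without YR713 (range -0.18 to 0.13) and *Grik5* to 0.0068 without YR612 (range -0.13 to 0.0068), with adjusted p of 0.742 and 0.984. The other 7 genes kept their sign under all 17 alternative fits. With length-corrected counts, the difference in AMPA share (*Yap* cKO minus control, percentage points) turned to 0.194 for *Gria1*, -0.559 for *Gria2* and 0.784 for *Gria4*. With each retina left out it lay between -1.12 and 0.409 for *Gria1*, -0.289 and 0.293 for *Gria3*, and -0.599 and 0.367 for *Gria4*. The causes of these changes were not tested. The difference in *Grik1* share stayed between 3.06 and 5.71. *Adarb1*, *Dlg2*, *Hip1*, *Shisa7* and *Grin2a* were followed in alternatives added after seeing the data. They passed an adjusted p of 0.05 without YR613, without YR714, with no filter, with DESeq2 and with the likelihood ratio test. There, 8.84%, 5.89%, 6.19%, 5.38% and 6.18% of all genes passed, in that order. Leaving out other retinas took the adjusted p of edgeR's quasi-likelihood test up to 0.291 (*Adarb1*), 0.263 (*Dlg2*), 0.291 (*Hip1*), 0.257 (*Shisa7*) and 0.265 (*Grin2a*). With 3 retinas per group, permutation p-values cannot go below 0.1. Leaving out a retina leaves 2 in its group. Expression of *Grik4* rests on few fragments. No paired analysis was possible because the labels give the groups no shared replicate numbers.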
